A study of Homo sapiens with 24 samples.

Results

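The comparison was of the RNA windows bound by SNRNP200 in whole HEK293 cells treated with arsenic against those bound in untreated cells. All windows of the 2 whole cell SNRNP200 lists were taken, 117690 with arsenic and 182066 without, which made 208613 distinct windows of the 225825 in the whole series. They named 9279 genes. A window counted as shared when chromosome, start, end and strand were the same in both lists, as gained when it was only in the arsenic list, and as lost when it was only in the untreated list.

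The series held 24 eCLIP libraries of HEK293, a human embryonic kidney cell line, for SNRNP200, CAPRIN and G3BP1, and 8 of them are the subject here. They formed 4 groups of 2 libraries, input and immunoprecipitate (IP), from whole cells that were untreated or had 500 µM of arsenic. The labels name no change of genotype and 1 dose of arsenic, with the duration of treatment not given in the sources used here. They also do not say that replicates came from separate cultures, so that p-values measure only the spread between these samples, which may be technical. One field of the labels names arsenic for every sample while the treatment characteristic does so only for the stressed ones, and the grouping rests on the latter. Of 6 markers for HEK293, the lists held VIM, KRT18 and NEFL and lacked KRT8, NEFM and INA, and none of 10 markers of other cell types had a window.

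SNRNP200 (Brr2 in yeast) is an RNA helicase that belongs to the U5 snRNP and pulls U4 away from U6, the step that turns the assembled tri-snRNP into a catalytic spliceosome. It acts on introns that are being removed. In the untreated list 42.0% of the IP reads lay in intron windows and 54.2% in exon windows. Whether reads came from newly made or finished transcripts was not measured. Arsenic damages proteins and thiols, and cells answer with heat shock chaperones, metallothioneins, which bind metal ions, the NRF2 response to oxidants and the integrated stress response led by ATF4.

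In eCLIP, protein and RNA are crosslinked, the protein is immunoprecipitated, and the reads are set against an input library. Each deposited list gave, for windows of up to 100 bases, the input and IP reads summed over both replicates and the log2 enrichment of each replicate, lowest and highest, without saying which replicate was which. The lists hold no library totals, so that the depth of each library is unknown. The listed windows held 8092831 IP reads untreated and 5567969 with arsenic. The median range between the replicates of a window was 0.81 untreated and 0.86 with arsenic on the log2 scale.

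Metallothionein genes had windows with arsenic only. Of 12 metallothionein genes, MT2A and MT1X had windows, both of them in the arsenic list only and neither in a cytoplasmic SNRNP200 list. Of all 9279 genes in either list, 227 (2.45%) were found only with arsenic. MT2A (chromosome 16, 56608584 to 56609354 on hg38, plus strand) had 9 windows with 4446 IP and 268 input reads, 5 in introns and 4 in exons. MT1X (chromosome 16, 56682470 to 56684049, plus strand) had 16 windows with 3756 IP and 335 input reads, 12 in introns and 4 in exons. The MT2A window with most enrichment, at the 3′ splice site of an intron (56609163 to 56609262), had replicate log2 enrichments of 5.40 and 7.48 on 1044 IP reads. In MT1X it lay at a 5′ splice site (56682569 to 56682668), with 5.51 and 7.47 on 431 IP reads. Metallothionein genes are alike in sequence, so the copy that a read came from is uncertain.

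Transcription of these genes is known to be switched on through metal response elements, short promoter motifs bound by the factor MTF1. The 150 bases before the start of MT1X and MT2A in RefSeq (GRCh38.p14) are shown. They are chr16:56682320-56682469 for MT1X and chr16:56608434-56608583 for MT2A, both on the plus strand. Capitals mark each match to the core of the element, TGCNCNC, on either strand, where N is any base and overlapping matches are joined.
MT1X promoter: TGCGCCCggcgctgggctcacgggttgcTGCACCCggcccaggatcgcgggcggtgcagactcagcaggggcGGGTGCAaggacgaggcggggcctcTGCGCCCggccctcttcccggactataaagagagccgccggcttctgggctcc
MT2A promoter: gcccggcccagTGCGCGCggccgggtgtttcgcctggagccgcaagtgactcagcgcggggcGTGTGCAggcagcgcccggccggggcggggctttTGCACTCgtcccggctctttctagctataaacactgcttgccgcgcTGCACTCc
Each of these stretches held 4 matches. At least 1 match stood in 35.3% of 35116 RefSeq promoter stretches of that length, and at least 4 in 0.441%. A match is a description of the letters, and binding of MTF1 was not measured. The promoters of metallothionein genes without windows were not counted apart, so the matches do not set MT1X and MT2A off from them.

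Across the whole lists, loss was the rule. Of the untreated windows 90923 (49.9%) were not in the arsenic list, and of the arsenic windows 26547 (22.6%) were not in the untreated list. The 91143 shared windows made up 50.1% of the untreated list. The arsenic list had 64.6% as many windows as the untreated list. Windows in 1 list only were weaker: lost windows had a median of 21 IP reads and a median q (the higher of both replicates) of 0.0863, shared ones 37 reads and 0.0296 in the untreated list. Gained windows had a median of 19 IP reads and a median q of 0.121, against 32 and 0.0752 for shared windows in the arsenic list. The same shared windows thus had a weaker q with arsenic than untreated, at a median log2 enrichment of 3.64 and 3.65. How far this difference in q set the number of lost windows was not tested. Of the gained windows 54.4% touched an untreated window, and of the lost ones 36.4% touched an arsenic window. A listed window was under the q threshold in both replicates, but gain and loss themselves have no replicate check, since there is 1 list per condition.

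Per gene the same loss was seen. Of 7975 genes in both lists, 898 had more windows with arsenic, which is 11.3% of them. Fewer windows were found in 6461 genes, 81% of them, and equal numbers in 616. The median gene had a log2 ratio of window numbers (arsenic over untreated, 1 added to each) of -0.58, and the range from the 5th to the 95th percentile was -2 to 0.42. Gain and loss mostly occurred within the same gene: 6025 genes had both, 1767 gained no window and 345 lost none. When the untreated list was shortened to the length of the arsenic list by q, 43.4% of genes had more windows. Equal lengths make gained and lost windows equal in number, so a rise of this share was largely set by the shortening. Of 3233 genes with at least 20 windows in one list, 273 had more with arsenic (8.44%), 15 of them at least 2 times as many, and 924 had at most 1 in 2 of theirs, 184 of them at most 1 in 4.

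**Figure D1:**
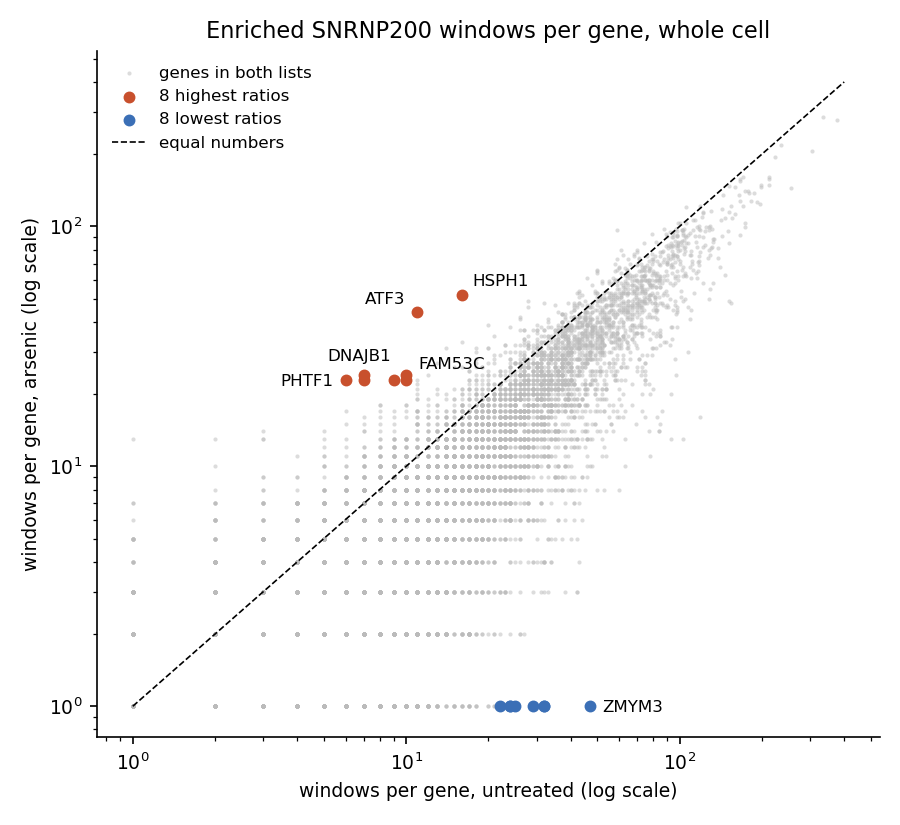
Windows per gene in the untreated list (x axis, log scale) against the arsenic list (y axis, log scale); grey points are the 7975 genes in both lists, coloured points the 8 highest and 8 lowest ratios among genes with at least 20 windows in one list, and the dashed line marks equal numbers. Most points lie under the line, and ATF3 with 11 and 44 windows and ZMYM3 with 47 and 1 lie far from it on opposite sides.

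Single windows named below were picked after their values were seen. For scale, the ranges of the replicates did not overlap in 16.9% of 7408 representative shared windows with the higher values with arsenic and in 15.2% with the lower, and limma called none of them. The genes with the highest ratio of window numbers were ATF3, PHTF1, DNAJB1, HSPH1, DUSP1, BBC3, FAM53C and AASS. ATF3, a stress-induced transcription factor downstream of ATF4, had 11 windows untreated and 44 with arsenic (chromosome 1, 212608761 to 212620493, plus strand). Of the 34 gained windows 21 lay in introns and 13 in exons, and 1 window was lost. In the 10 shared windows the IP reads were 442 untreated and 2668 with arsenic, 6.04-fold, and the input reads 45 and 209, 4.64-fold. At the 3′ splice site window 212618027 to 212618126 the untreated replicates had log2 enrichments of 4.13 and 4.37 and the arsenic replicates 5.37 and 6.35, without overlap. In the coding window 212618181 to 212618234 they were 2.03 and 3.93 against 4.63 and 5.54. The neighbouring window 212617927 to 212618026, further into the intron, went the other way, with 3.28 and 3.78 untreated and 3.11 and 3.20 with arsenic.

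DNAJB1, the HSP40 co-chaperone of HSP70, had 7 windows untreated, all kept, and 24 with arsenic (chromosome 19, 14514866 to 14518349, minus strand). Its 7 shared windows held 303 and 3009 IP reads, 9.93-fold more with arsenic, and 23 and 215 input reads, 9.35-fold more. The mean log2 enrichment of these windows differed, arsenic minus untreated, by -0.57 to 1.15. In the 5′ splice site window 14518039 to 14518138 the replicates were 4.36 and 5.06 untreated and 3.90 and 4.76 with arsenic, on 96 and 1130 IP reads. In the coding window 14516876 to 14516960 they did not overlap, at 3.15 and 3.42 against 4.33 and 4.34.

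**Figure D2:**
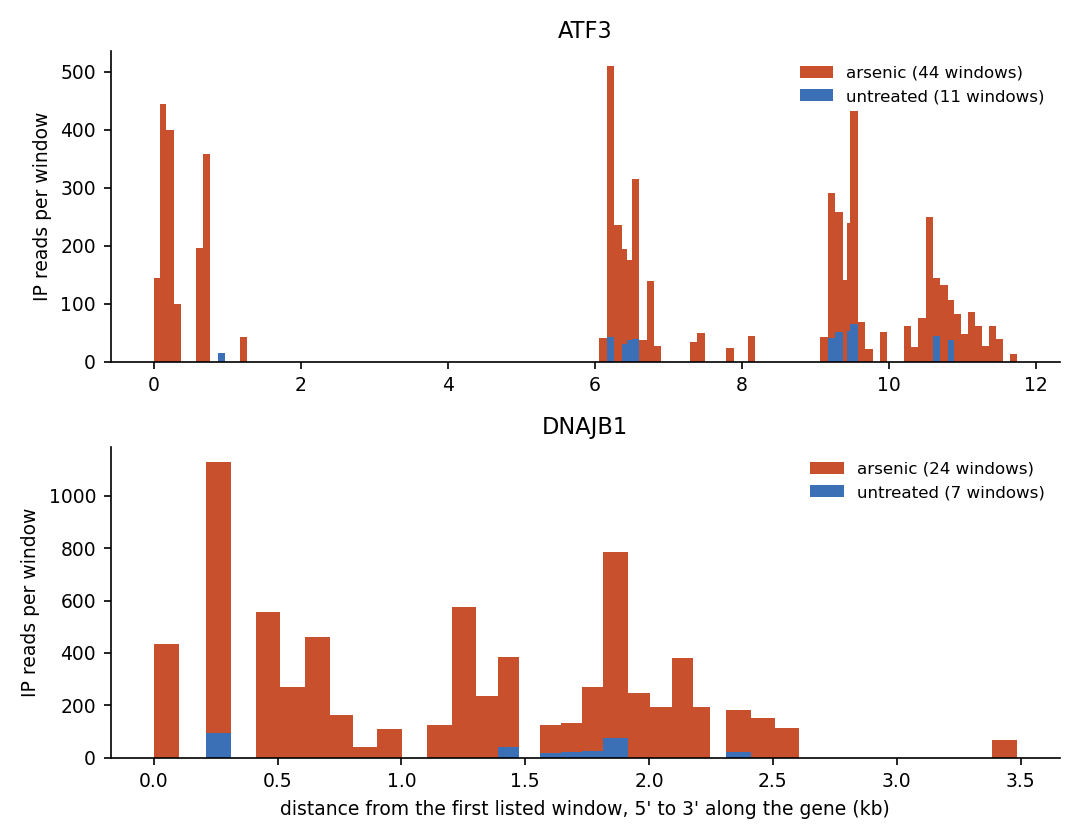
IP reads per listed window (y axis, both replicates summed) along ATF3 and DNAJB1, by distance in kb from the first listed window in the direction of transcription (x axis); blue bars are untreated and red bars arsenic windows, drawn at their true width. ATF3 had 11 windows untreated and 44 with arsenic and DNAJB1 had 7 and 24, and the arsenic bars are the higher ones at every shared window.

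HSPH1, the HSP110 chaperone that recharges HSP70, had 16 windows untreated and 52 with arsenic (chromosome 13, 31137318 to 31161475, minus strand). It gained 23 intron and 17 exon windows and lost 4. The IP reads in its 12 shared windows were 337 and 1393 (4.13-fold) and the input reads 81 and 222 (2.74-fold). At the 5′ splice site window 31150847 to 31150946 the replicates were 2.60 and 2.91 untreated and 4.56 and 4.84 with arsenic, and in the coding window 31151609 to 31151675 they were 4.30 and 4.47 against 2.72 and 3.14. DUSP1, a phosphatase of stress-activated kinases, had 7 windows, all kept, and 23 with arsenic. Its shared windows held 169 and 1007 IP reads, 5.96-fold more with arsenic, and 5.38-fold more input reads. Its 5′ splice site window 172769475 to 172769574 on chromosome 5 had 3.32 and 4.22 untreated and 6.86 and 7.18 with arsenic, on 3 and 1 input reads.

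BBC3, which encodes the cell death protein PUMA, had 9 windows untreated, all in introns, and 23 with arsenic, 21 of them in introns. FAM53C had 10 and 24 windows, PHTF1 6 and 23 with only 2 shared, and AASS, an enzyme of lysine breakdown, 10 and 23. In AASS the order turned when only windows with q under 0.05 were kept (log2 ratio -0.22 instead of 1.13). In these 4 genes the shared windows held 1.45 to 3.51 times the IP reads and 1.85 to 3.75 times the input reads. In each of the genes with the highest ratio, the input reads in shared windows were higher with arsenic. This did not hold for all genes with more windows. Over the 811 genes with more windows and input reads in the shared windows of both lists, the median fold was 1.24 for IP and 1.03 for input. Of these 811 genes, 638 had higher IP reads and 423 higher input reads with arsenic. Over 5954 genes with fewer windows the median fold was 0.858 for IP and 0.769 for input, and over all 7199 such genes 0.902 and 0.8. In the 15 genes with at least 2 times as many windows and 20 or more, both folds were above 1 in all, with medians of 2.15 and 2.46. These are ratios of deposited reads without library totals. How far the amount of RNA sets the number of windows was not tested, and an amount of RNA and the binding per RNA cannot be told apart from such counts alone.

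At the other end, 8 genes with 22 to 47 windows untreated had a single window with arsenic. ZMYM3, a zinc finger protein of chromatin complexes, had 47 windows untreated with 1110 IP reads (chromosome X, 71240916 to 71254028, minus strand), 28 in introns and 19 in exons, and 1 with 17 IP reads. In that 5′ splice site window (71242870 to 71242969) the replicates were 4.71 and 5.42 untreated and 4.14 and 4.68 with arsenic. The window had 29 and 17 IP reads and 0 input reads in both lists. The arsenic replicates were lower without overlap, but without input reads these enrichments are uncertain. AKAP12, a scaffold for protein kinase A, had 32 windows, all in exons, and 1. Its remaining coding window (chromosome 6, 151349598 to 151349696) held 38 and 34 IP reads and had replicate values of 2.42 and 2.699 untreated and 2.42 and 3.70 with arsenic. NDRG1 had 32 windows and 1, ASH2L, a subunit of histone H3 lysine 4 methyltransferases, 29 and 1, and MIB2, a ubiquitin ligase, 25 and 1. TNIP1 and PRDM4 had 24 and 1 and GIT1 22 and 1, and the single arsenic window of PRDM4 was a new one. In the 7 genes with a shared window its IP reads with arsenic were 0.235 (ASH2L) to 0.895 (AKAP12) of the untreated number. In 175 genes that kept at most 1 in 4 of 20 or more windows, the median fold in shared windows was 0.609 for IP and 0.643 for input reads. With q under 0.05 or lists of equal length the log2 ratio of MIB2 was -1 and -1.32 instead of -3.70.

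Among genes in 1 list only, 227 were found only with arsenic, 2.45% of the 9279, and 1077 only untreated, 11.6%. Of the first 170 had 1 window and 11 had 5 or more, and of the second 460 had 1 and 160 had 5 or more. The windows of the former numbered 169 in introns and 169 in exons, and those of the latter 1181 and 1680, an intron share of 50% and 41.3%. After the metallothioneins, the genes with most IP reads found only with arsenic were the snRNA copies RNU2-61P (2 windows, 823 IP reads) and RNU6-28P (1 window, 470 IP reads), HSPA1A (1 window, 331) and GABPB1, a subunit of the transcription factor GABP (5 windows, 272). HSPA1A encodes the inducible HSP70. Its coding window had replicate values of 1.61 and 1.89 with 149 input reads, a low enrichment on many input reads. HSPA1B, a near-identical copy, had 1 window with 51 IP reads in the untreated list and none with arsenic, so the split between both copies is uncertain.

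The genes with most IP reads found only untreated were the mitochondrial ribosomal RNAs MT-RNR1 (3 windows, 25577 IP reads) and MT-RNR2 (1 window, 16590 IP reads). The strongest window of MT-RNR1 had replicate log2 enrichments of 1.46 and 1.92 on 6226 input reads and that of MT-RNR2 a mean of 1.73 on 9543 input reads. The arsenic list held no window of the mitochondrial genome. The linker histone genes H1-4 (3 windows) and H1-2 (1 window) and the histone gene H2BC21 (2 windows), which have no introns, followed with 2551, 615 and 644 IP reads. The replicates of H1-2 were at 1.63 and 1.73. HOXA5, a homeobox gene, had 11 windows untreated, 6 in introns and 5 in exons, with 903 IP reads, and none with arsenic in whole cells. The cytoplasmic lists went both ways for these genes. HOXA5 had 7 cytoplasmic windows untreated and 2 with arsenic, while H1-4 had 0 and 6, H2BC21 1 and 4 and MT-RNR2 0 and 1. Of the named genes found only with arsenic in whole cells, HSPA1A had 4 cytoplasmic windows untreated and 0 with arsenic, and the other five had none. A gene missing from a list had no window under the q threshold, which does not show that it was not bound.

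Gene lists were then read against all genes, of which 11.3% had more windows with arsenic at a median log2 ratio of -0.58. These lists were chosen with earlier results of these data in view, so their direction is a description. Of 25 heat shock chaperone genes 19 were in both lists, and 11 had more windows, 7 fewer and 1 an equal number, at a median of 0.11. Besides HSPH1 and DNAJB1, HSP90AA1, the stress-inducible HSP90, had 18 windows untreated, all kept, and 31 with arsenic. Its shared windows held 1466 and 7970 IP reads and 101 and 576 input reads, 5.44-fold and 5.70-fold. At the 5′ splice site window on chromosome 14 from 102085708 to 102085757, its replicates were 4.70 and 4.94 untreated and 5.29 and 5.45 with arsenic. BAG3, a co-chaperone of HSP70, had 1 and 7 windows and DNAJA1 24 and 38. HSPA4, an HSP110 family member, had 66 and 37, its relative HSPA4L 34 and 13, and HSF1, the transcription factor of the response, 26 and 9. In the 19 genes the median fold in shared windows was 1.72 for IP and 1.78 for input reads.

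Of 17 integrated stress response genes 16 were in both lists, with more windows in 10, fewer in 4 and an equal number in 2, at a median of 0.23. CHAC1, which breaks down glutathione, had 3 windows untreated and 14 with arsenic, DDIT3 (CHOP) 9 and 16, PPP1R15A (GADD34, which restores translation) 5 and 12, and SESN2, a stress sensor that restrains mTORC1, 50 and 66. The shared windows of SESN2 held 3592 and 11288 IP reads, 3.14-fold, and 366 and 855 input reads, 2.34-fold. ATF4 itself, the central transcription factor, had 11 windows in each list with 2970 and 2912 IP reads in the shared ones. PHGDH, the first enzyme of serine synthesis, had 86 and 78. The median fold of the 16 genes was 1.80 for IP and 1.40 for input reads.

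Of 20 genes of the NRF2 response 16 were in both lists, 4 with more, 9 with fewer and 3 with equal numbers, at a median of -0.04. In these 16 genes the median fold in shared windows was 1.13 for both IP and input reads. GCLM, a subunit of the enzyme that starts glutathione synthesis, had 8 and 17 windows, with 341 and 1023 IP reads in the shared ones. SLC7A11, the cystine importer, had 18 and 30, while TKT of the pentose phosphate pathway had 72 and 38. The shared windows of SLC7A11 held 478 and 838 IP reads, 1.75-fold, and 97 and 73 input reads, 0.753-fold. HMOX1, heme oxygenase 1, had 2 windows with 266 IP reads with arsenic only. Of 20 immediate early genes 6 were listed and 5 in both. DUSP1 had more windows, KLF6 had 9 and 12, and BTG2 had 1 and 2. JUN, a gene without introns, had 5 windows in each list with 279 and 1586 IP reads. In its start codon window (chromosome 1, 58782971 to 58783070) the IP reads were 74 and 475 and the input reads 36 and 224, and the replicates overlapped, at 1.39 and 1.48 untreated and 1.44 and 2.03 with arsenic. MYC had 21 windows untreated with 1546 IP reads and 2 with arsenic with 72.

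Genes of the splicing machinery were read in 4 lists. Of 23 tri-snRNP protein genes 22 were in both lists, 20 with fewer windows, at a median of -0.74, and their windows numbered 966 untreated and 622 with arsenic. The median fold in their shared windows was 0.762 for IP and 0.707 for input reads. SNRNP200 had 140 and 68 windows on its own transcript (chromosome 2, 96275012 to 96305392, minus strand), with 2959 and 1789 IP reads in the 64 shared ones. In the window with most arsenic reads among these, 96284586 to 96284654, the replicates overlapped at 3.07 and 3.94 untreated and 3.14 and 4.57 with arsenic. PRPF8, the largest U5 protein, had 187 and 138, SART1 59 and 25, DDX23 45 and 20, and LSM6 5 and 0. SNRNP40 had more, with 28 and 32. SR protein genes (1 with more, 10 with fewer and 1 equal of 12 in both lists) and hnRNP genes (0 with more, 22 with fewer and 2 equal of 24) had medians of -0.12 and -0.14. The median fold in shared windows was 1.197 for IP and 0.995 for input reads in SR genes, and 0.965 and 0.916 in hnRNP genes. The differences between these lists and other genes were not tested. Among 7 CLK kinases and other genes known for introns that stay in nuclear transcripts, MAT2A, which makes the methyl donor S-adenosylmethionine, had 26 and 30 windows and the other 6 fewer, such as CLK2 with 74 and 45.

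By feature, windows at a splice site were kept most often among the intron windows. Of untreated windows, 58.2% of those at a 5′ splice site, 55.7% of those at a 3′ splice site and 56.5% of those in short introns at both were also in the arsenic list. Near but not at a 5′ or a 3′ splice site it was 32.5% and 25.7%, and in deep introns 25.4%. Coding sequence kept 49.8%, 5′ UTRs 45.2%, 3′ UTRs 40.8% and other mRNA exons 61.1%. Windows that were kept less also had a weaker q in the untreated list, with medians of 0.0401 at 5′ splice sites, 0.0537 in coding sequence and 0.109 in deep introns. New windows were most frequent in deep introns, where 55.3% of the arsenic windows were gained, against 22.6% at 5′ splice sites and 16.4% in coding sequence. In numbers, coding sequence lost 35365 windows and gained 6901, and 5′ splice sites lost 13946 and gained 5687.

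**Figure D3:**
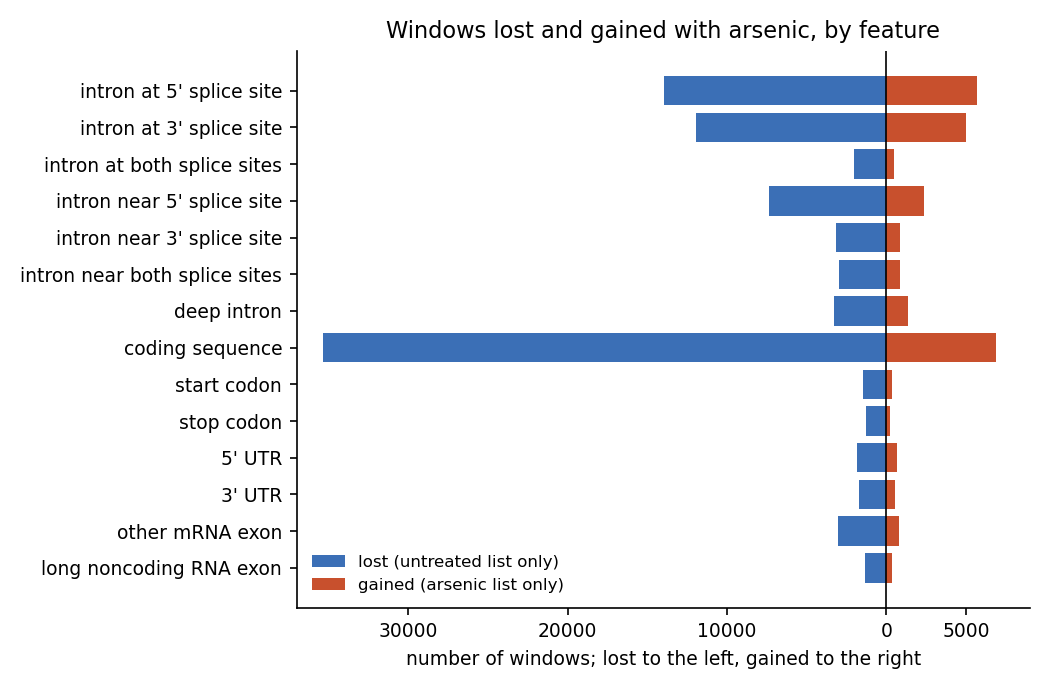
Number of windows (x axis) by feature type (y axis, rare types left out), with those only in the untreated list drawn to the left of 0 and those only in the arsenic list to the right. Coding sequence has the longest bar to the left, 35365 lost and 6901 gained, followed by 5′ splice sites with 13946 and 5687.

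Introns and exons as a whole were kept to the same extent, 49.9% and 50.2%. They differed in what was new: of the arsenic intron windows 72.8% were shared, and of the arsenic exon windows 82.5%. Introns therefore made up 49.0% of the untreated and 51.9% of the arsenic windows, and 42.0% and 44.3% of the IP reads. The kept share differed little along the gene. The windows of 3173 genes with at least 20 untreated windows were divided into 5 equal parts in the direction of transcription, and from the first to the last part 52.2%, 54.5%, 55.2%, 55.1% and 51.6% were kept. For exon windows the first and last parts were at 52.3% and 49.95% and the middle one at 57.2%, and for intron windows the parts lay between 52.1% and 53.9%.

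Within genes, the intron-to-exon balance was taken as the log2 of the ratio of intron to exon IP reads with arsenic over the same ratio untreated, so that values above 0 mean relatively more intron reads with arsenic. Only listed windows enter it, and a window that left the list adds no reads. It could be had for 3059 genes with at least 3 windows and 100 IP reads of each kind in each list. The median was 0.20, with quartiles of -0.13 and 0.53, and 2019 genes (66%) were above 0. The 95% interval of counting error lay above 0 in 1381 genes (45.1%) and below 0 in 531 (17.4%). These intervals hold no spread between replicates, since reads were summed over both. At least 2-fold shifts toward introns were found in 250 genes and toward exons in 58.

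Introns and exons of these genes differed in gained windows more than in lost ones. In the 3059 genes 58.1% of exon and 57.1% of intron windows were kept, and 12094 intron but 6143 exon windows were gained. More intron than exon windows were gained in 1921 genes and the reverse held in 594. When only shared windows were used, the median over 2624 genes was 0.024, against 0.19 in the same genes with all windows, and the interval was above 0 in 379 and below 0 in 251. Input reads of the listed windows had a median balance of 0.03, and in 2210 genes (72.2%) input and IP balance had the same sign. In all shared windows of the lists, the median difference in log2 enrichment, arsenic minus untreated, was 0.05 for 44511 intron windows and -0.06 for 46577 exon windows.

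**Figure D4:**
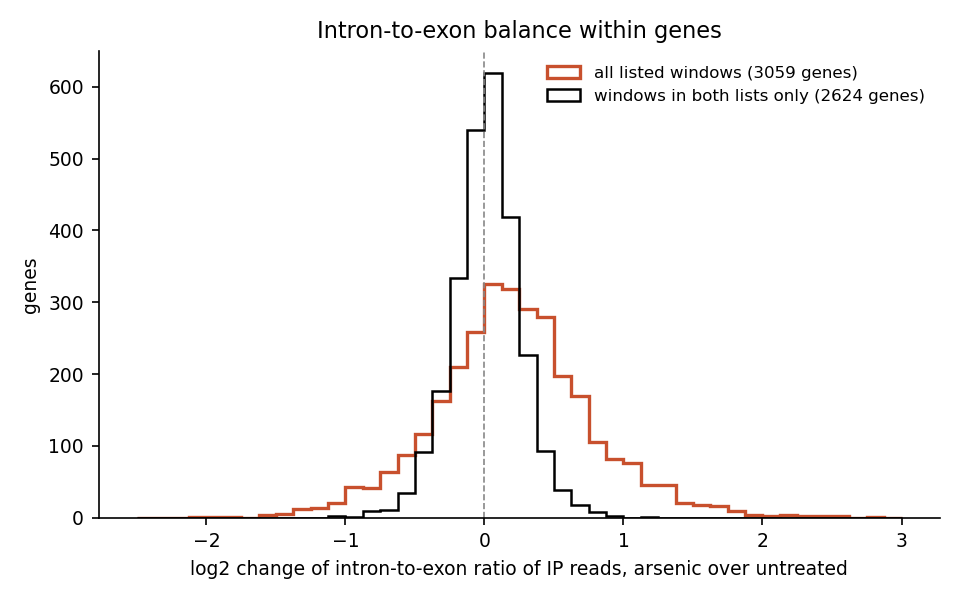
Number of genes (y axis) by the log2 change of the intron-to-exon ratio of IP reads, arsenic over untreated (x axis); the red line uses all listed windows (3059 genes) and the black line windows in both lists only (2624 genes). The red distribution is wider and has its median at 0.20, the black one at 0.024.

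The genes with the largest shift toward introns were APP, PSMA7, GTF2IP4, LMNB2, NFIA, BOP1, ANKRD11 and DST. APP, the amyloid precursor protein (chromosome 21, 25881772 to 26112246, minus strand), had 19 exon and 12 intron windows untreated and 5 and 15 with arsenic. Its exon IP reads were 1128 and 250 and its intron IP reads 247 and 370, so that introns held 18.0% and then 59.7% of both, a balance of 2.76 (2.45 to 3.06). In its 14 shared windows the balance was 0.56 (0.20 to 0.92), and for IP over input it was 0.13. In the shared coding window 26000015 to 26000098 the replicates were 1.66 and 2.71 untreated and 1.95 and 3.69 with arsenic, on 126 and 62 IP reads and 39 and 9 input reads. Of the 5 exon windows of APP in both lists, 3 had a higher and 2 a lower mean enrichment with arsenic, and the other 14 had left the list.

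LMNB2, which encodes lamin B2 of the nuclear envelope, kept 3 of 20 exon windows, with 1531 and 149 exon IP reads, and had 52 and 37 intron windows, at a balance of 2.52 (2.27 to 2.77) and of 0.10 (-0.20 to 0.40) in shared windows. PSMA7, a core proteasome subunit, had 13 and 3 exon and 10 and 8 intron windows. Its balance was 2.55 in all and 0.23 (-0.10 to 0.57) in shared windows. BOP1, a ribosome assembly factor, had 2.39 in all and 0.12 (-0.21 to 0.45) in shared windows. ANKRD11, a chromatin regulator, gained 27 intron windows and 1 exon window and lost 19 and 20, with a balance of 2.36 in all and 0.79 (0.59 to 1.00) in shared windows. NFIA, a transcription factor of the nuclear factor I family, was at 2.43 in all and 0.44 (-0.43 to 1.30) in shared windows. It gained 6 intron windows. One of them, in a deep intron (chromosome 1, 61161227 to 61161326), held 329 of its 432 intron IP reads with arsenic, at replicate values of 7.13 and 7.57. DST, the giant cytoskeletal linker dystonin, had 89 and 14 exon and 18 and 16 intron windows, at 2.36 in all and -0.09 (-0.59 to 0.40) in shared windows. GTF2IP4, at 2.55 in all and 0.38 (0.02 to 0.75) in shared windows, is a pseudogene close in sequence to GTF2I. The origin of its reads is therefore uncertain. Input reads shifted with the IP in these genes. For IP over input, the balance was 0.28 in LMNB2, 0.27 in GTF2IP4, 0.28 in ANKRD11, 0.083 in DST, -0.32 in BOP1 and -1.13 in PSMA7, and NFIA had too few input reads for this value.

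Toward exons, FMR1 stood first. FMR1, the gene of the RNA-binding protein FMRP (chromosome X, 147912103 to 147948744, plus strand), kept 14 of 26 exon and 4 of 31 intron windows and gained none. Its exon IP reads were 1298 and 684 and its intron IP reads 928 and 114, at a balance of -2.10 (-2.41 to -1.79) and of -0.83 (-1.19 to -0.48) in shared windows. In its coding window 147943229 to 147943326 the IP reads were 176 and 175, and the replicates overlapped, at 3.36 and 5.22 untreated and 3.36 and 4.87 with arsenic. INSIG1, a brake on cholesterol synthesis, gained 6 exon and 2 intron windows and had 103 and 399 exon and 248 and 252 intron IP reads, at -1.93 (-2.33 to -1.53). EZH1, a histone H3 lysine 27 methyltransferase, had 20 and 7 intron windows and kept a balance of -0.80 (-1.14 to -0.46) in shared windows, against -1.52 in all.

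For IP over input INSIG1 was at -1.58, and FMR1, EZH1, TMEM161A and STK25 had too few input reads for this value. The pseudogene DUXAP10 was at -1.78 (-0.95 for IP over input), RP11-577H5.5 at -1.60 (-0.91), TMEM161A at -1.57 and STK25, a kinase, at -1.48. VPS25, a subunit of the ESCRT-II sorting complex, was at -1.58 for IP reads but at 1.09 for IP over input. In shared windows VPS25 was at -0.63 (-1.19 to -0.08), while the intervals of the remaining genes crossed 0. These were DUXAP10 at -0.36 (-0.77 to 0.04), RP11-577H5.5 at -0.13 (-0.40 to 0.13) and INSIG1 at -0.09 (-0.99 to 0.82). TMEM161A was at -0.06 (-0.55 to 0.43) and STK25 at 0.28 (-0.29 to 0.85). In the 250 genes shifted at least 2-fold toward introns, 36.6% of exon and 58.8% of intron windows were kept, with 1411 intron and 321 exon windows gained. In the 58 shifted toward exons 58.0% and 28.9% were kept, with 62 intron and 117 exon windows gained. The values for both groups follow from how they were selected and are given as a description.

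**Figure D5:**
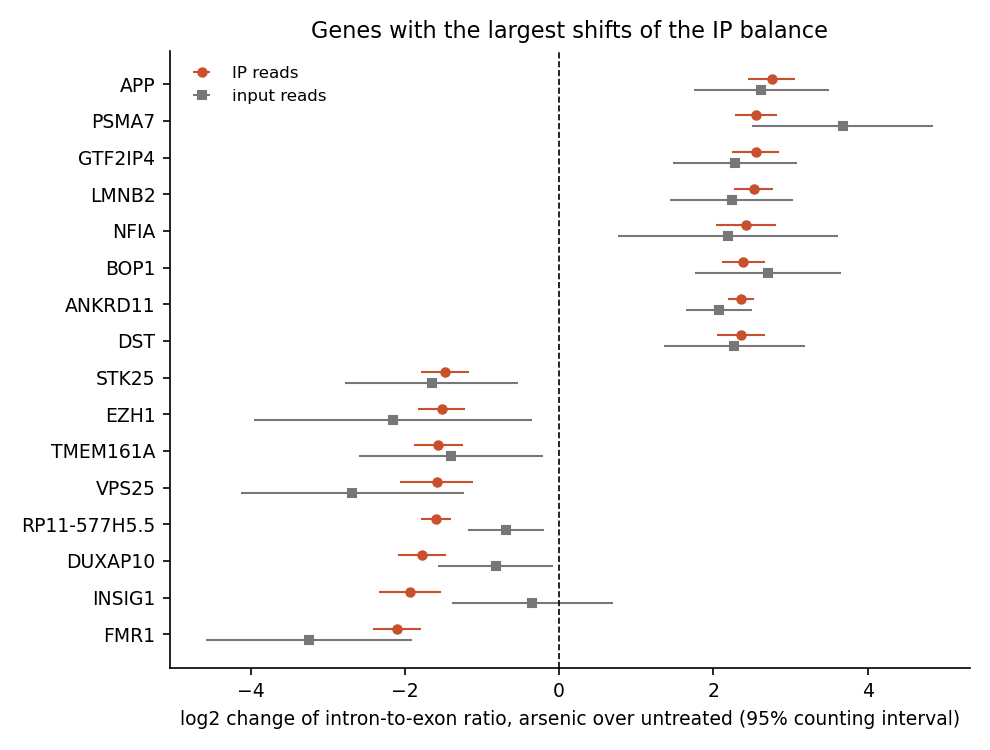
Log2 change of the intron-to-exon ratio, arsenic over untreated (x axis), for the 8 genes shifted most toward introns and the 8 toward exons; red circles are IP reads, grey squares input reads, and bars the 95% counting interval. The IP values run from 2.76 in APP to -2.10 in FMR1, and the input values lie on the same side of 0, with an interval across 0 in INSIG1.

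Among the gene lists, the balance was above 0 in 9 of 12 heat shock genes with enough windows (median 0.23) and 9 of 11 SR protein genes (0.28). The same held for 14 of 21 hnRNP genes (0.21) and 8 of 14 tri-snRNP genes (0.08), beside 66% and 0.20 for all genes. It also held for 5 of 8 integrated stress response genes (0.35) and 8 of 10 NRF2 genes (0.24). The 1 immediate early gene with enough windows was at -0.29. These values use all listed windows, and the lists were not read in shared windows only. SRSF2, an SR protein, was at 0.72 (0.58 to 0.86) and SRSF3 at 0.80. SRSF6 at -0.16 (-0.26 to -0.06) and SRSF10 at -0.24 (-0.47 to -0.01) were below 0. Among the 7 genes with detained introns 4 were above 0 (median 0.23). OGT, the O-GlcNAc transferase with a well-known detained intron, was at 0.68 (0.56 to 0.80) and CLK4, a kinase of SR proteins, at -0.82 (-1.12 to -0.52). SNRNP200 was at 0.81 (0.66 to 0.96) in all windows and 0.07 in shared ones.

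The replicate values were tested in shared windows only. In the shared window with most IP reads of each gene, limma (moderated, two-sided, Benjamini-Hochberg) called 0 of 7408 genes (0%) at an adjusted p of 0.05, with a smallest adjusted p of 0.99. An unadjusted p under 0.05 was found in 284 (3.83%). The windows without overlap numbered 1253 higher with arsenic (16.9%) and 1123 lower (15.2%). The balance of summed IP reads itself could not be tested, since it has no replicate values. A second limma fit set the arsenic effect on enrichment in 1 shared intron window against that in 1 shared exon window of the same gene. It called 0 of 5308 genes (0%), with a smallest limma adjusted p of 0.51, and 193 (3.64%) had an unadjusted p under 0.05. All other settings tried with limma also gave 0 calls. With at least 20 IP and 10 input reads, 1897 genes were left in the first test and 544 in the second. None of the genes named below was among these 544.

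The gene with the highest value in that test was NRBP1, a pseudokinase, at 6.09 (SE 1.30, limma adjusted p = 0.51). Its intron window near a 5′ splice site (chromosome 2, 27429032 to 27429131) had 2.51 and 4.20 untreated and 5.37 and 6.08 with arsenic, and its coding window (27436753 to 27436836) had 5.85 and 6.96 untreated and 2.06 and 3.33 with arsenic. CWC15, itself a spliceosome protein, followed at 4.80 (SE 1.27), SS18L1 at 4.19 and CD276 at 4.04. CCDC134 was lowest at -5.41 (SE 1.28, limma adjusted p = 0.81), with 4.22 and 4.89 untreated and 2.35 and 2.85 with arsenic at a 5′ splice site, and 2.52 and 3.45 against 5.51 and 7.36 in the coding window. MTIF3, a mitochondrial translation initiation factor, was at -5.08, VMA21 at -4.51 and RAB5C at -4.17. None of these passed the test. With the windows of most input reads in place of most IP reads, NRBP1 was at 3.90, CWC15 at 2.69, SS18L1 at 2.6999, CD276 at 1.75 and RAB5C at -1.13, while CCDC134, MTIF3 and VMA21 were at -5.27, -5.08 and -4.51.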

How the data were processed

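Reads were trimmed with fastp 0.11.5 and aligned with STAR 2.7.6 to hg38, per the submitters' processing notes; the window caller was not given in the sources used here. Each experiment had 1 list without column names, and its columns were told apart by their contents. For every window the authors deposited raw read counts, 1 sum over 2 replicates for input and 1 for IP. Enrichment over input was deposited on a log2 scale for the lowest and the highest replicate, with their mean, and each list had its own baseline. For p-values and q-values the authors deposited the extremes over replicates, all listed q being under 0.2. The GC content was deposited as a fraction and was not used in a test.

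Coordinates are 1-based. A window of several genes was counted for each. Intron windows are those the lists call intron or splice site, exon windows those of coding sequence, UTRs and other exons. Counting intervals cover counting error only, at 95%. Tests used limma 3.58.1 in R 4.3.3, after a check on simulated data, with 1 representative shared window per gene. For the intron-to-exon difference in enrichment, 1 intron and 1 exon window were treated as separate observations. An exact permutation test of 2 libraries against 2 is not able to reach 0.05. Named genes were the 8 highest and 8 lowest by window ratio (20 or more windows in the longer list) and by balance. Also named were the 6 with most IP reads in each list alone and the 4 highest and 4 lowest of the intron-to-exon enrichment test. Members of the gene lists that differ most in windows were named too. Other members named, such as ATF4, JUN and SNRNP200, and single windows within a gene were picked after their values were seen. The members and lists were chosen with earlier results of these data known. The alternatives tried concerned q, list length, overlap, low counts, window kinds, input, variance and centring. The other experiments of the series were used only for the number of windows and cytoplasmic membership. All protocols name the same antibody number, and the protein in each label was used. RefSeq promoters (GRCh38.p14) were matched by symbol, 2 of 2.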

Additional observations from a re-analysis of the deposited data

How the results depend on the processing

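The shared share of the untreated list (50.1%) was 30.6% with q under 0.05, 61.8% with lists of equal length and 53.2% with at least 20 IP reads; that of the arsenic list (77.4%) was 77.7%, 61.8% and 78.7%, and the share of genes with more windows (11.3%) was 4.64%, 43.4% and 16.9%. Windows of both lists were identical or did not overlap, so an overlap of 50% gave the same values and tests nothing. The median balance of 0.20, with 66.0% of genes above 0, was 0.024 and 54.3% in shared windows, 0.17 and 62.1% with window numbers, 0.11 and 55.4% without splice site introns (825 in place of 3059 genes), 0.20 and 65.5% with coding sequence as the exon class, 0.17 and 63.1% with lists of equal length, and 0.14 and 62.9% for IP over input. Reversed were the window ratio of AASS (-0.22 with q under 0.05) and, for IP over input, the balances of PSMA7 (-1.13), BOP1 (-0.32) and VPS25 (1.09); the cause was not tested. Of the other values for named genes, 51 moved and 90 were counted as unchanged. Unchanged balances stayed within their counting interval, and unchanged limma values kept their direction without passing. The 38 unchanged window ratios have no error interval and were judged by the size of the change only. No paired analysis was possible because the lists give replicate values without numbers; for that reason the replicate block and leaving out a replicate were not run. Depth is unknown, and a window with few input reads, such as the 3 and 1 in DUSP1, has an uncertain enrichment.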
